A study of Homo sapiens with 6 samples.

Results

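Histone genes were followed in CAL51 cells, an established human triple-negative breast cancer line, after targeting of TREX1, the major cytosolic DNA exonuclease. Every row of the expression table whose symbol has the stem of a histone gene family was taken (H1-, H2AC, H2AZ, H2AX, H2AJ, H2BC, H2BU, H3-, H3C, H4C, H4- or MACROH2A), which gave 38 of 14788 rows. Of these, 26 carry the symbol of a gene in a histone cluster, 20 on chromosome 6 and 6 on chromosome 1. A further 9 are variants with polyadenylated mRNA, among them H1-10, H2AZ1, H2AZ2, H2AJ, H3-3A, H3-3B, MACROH2A1 and MACROH2A2. The other 3 are H2AX, whose mRNA is known in both forms, H4C16, an H4 gene outside those clusters, and H1-10-AS1, an antisense RNA that encodes no histone. Of the clustered rows, H2BC19P and H2BC20P are annotated as pseudogenes.

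The groups were KO-1, KO-2 and control, with 2 bulk RNA-seq libraries each. KO-1 and KO-2 each received a different guide RNA against TREX1, by transduction with a CRISPR v2 lentivirus. The labels name the control without saying whether it carried a guide, a vector or Cas9. The authors' description file speaks of multiple knockout clones, and the labels do not say whether a group is 1 clone or a pool, or whether replicates were separate cultures. The p-values therefore rest on a spread between libraries that may be technical. TREX1 itself was not analysed here, so the labels were not checked against it.

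DNA in the nucleus is wound around octamers of the core histones H2A, H2B, H3 and H4, and the linker histone H1 binds where it enters and leaves. Most core histone is made in S phase from clustered, replication-dependent genes without introns, whose mRNAs are known to end in a stem-loop bound by the stem-loop binding protein SLBP instead of a poly(A) tail. The variants are made throughout the cell cycle from genes outside the clusters, and their mRNAs are polyadenylated. The labels give the sequenced molecule as poly(A) RNA, so a clustered gene was measured here mainly through whatever part of its RNA carries a poly(A) tail. Some clustered genes are known to make such RNA, by reading through the stem-loop to a poly(A) signal further on. In bulk RNA, fewer cells in S phase and less RNA per cell cannot be told apart.

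The recovered depth was 13222933 to 25785055 reads per library. KO-2 replicate 1 was the shallowest library, with 61 genes at 0 reads, against 5 to 16 in the other libraries. Its group also had the widest spread between replicates, where the chi-square of replicate counts over its degrees of freedom was 8.27, against 2.98 in KO-1 and 3.66 in control. A library's floor of 3 reads, from counting error alone, stood at 0.115 to 0.230 CPM, the scaled count of a library. All 5 epithelial markers in the list used were present, with a summed level of 2205 to 2214 CPM in KO-1, 2170 to 2197 CPM in KO-2 and 1764 to 1802 CPM in control. EPCAM, KRT8, KRT18 and KRT19 rose with both guides. Of 11 markers of leukocytes, endothelium and red cells, 5 had a tested row: PTPRC, ITGAM, PECAM1, CDH5 and VWF. PTPRC, a leukocyte marker, was present in every library, at a log2 CPM of 3.95 to 4.35. The other 6 of the 11 had no row, among them CD3E, LYZ, HBA1, HBA2 and HBB. The summed level of those with a row was 39.5 to 39.9 CPM in KO-1, 35.1 to 37.0 CPM in KO-2 and 37.3 to 40.8 CPM in control. CDH5 fell for both guides together (limma, adjusted p = 0.030) but was not called in KO-1 alone (0.12). With quantile normalization or library medians made equal, CDH5 was not called for both guides.

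The annotated 3′ ends differed in part between the classes. A search of the GENCODE release 29 transcripts for the histone stem-loop found it in 42 of 19684 protein-coding genes (0.213%). Among protein-coding members it was found in 15 of 23 clustered genes, in both H2AX and H4C16, and in 0 of 9 variants. The forms differed between genes by a few bases in the stem or the loop, and none was found in a variant. They are written below as DNA, 5′ to 3′, with both stem arms in capitals and the loop in lower case.
H2AC6, H2AC13, H2AC25, H2BC6, H2BC15, H2BC18, H2BC21 and H3C10: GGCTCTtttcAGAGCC
H2BC4, H2BC5 and H2BC7: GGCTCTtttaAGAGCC
H3C6: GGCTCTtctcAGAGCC
H2AC11, H2BC19P and H2BC20P: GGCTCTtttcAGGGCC
H4C8 and H4C16: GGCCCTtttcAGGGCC
H4C9: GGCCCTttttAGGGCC
H2AX: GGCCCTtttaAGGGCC
In the form of H2AC11 and the pseudogenes, the arms make 5 Watson-Crick pairs and 1 G-U pair; in every other form shown they make 6 Watson-Crick pairs. Of the 19 members with a stem-loop, 17 had an annotated transcript that ran at least 100 bases past it, by 1862 bases in H3C6, 1128 bases in H2AC6, 1044 bases in H2AX and 212 bases in H4C9. For H2BC5 and H2AC13 the longest run was 39 bases. A poly(A) signal (AATAAA or ATTAAA) lay in the last 50 bases of a transcript in 9 of 9 variants and 15 of 25 clustered genes with a model. A clustered gene without a match was not shown to lack either feature, since some models stop at the coding sequence. That does not cover H2BC11, whose longest model has 950 bases. A poly(A) signal was found in H2BC11 but no stem-loop.

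**Figure D1:**
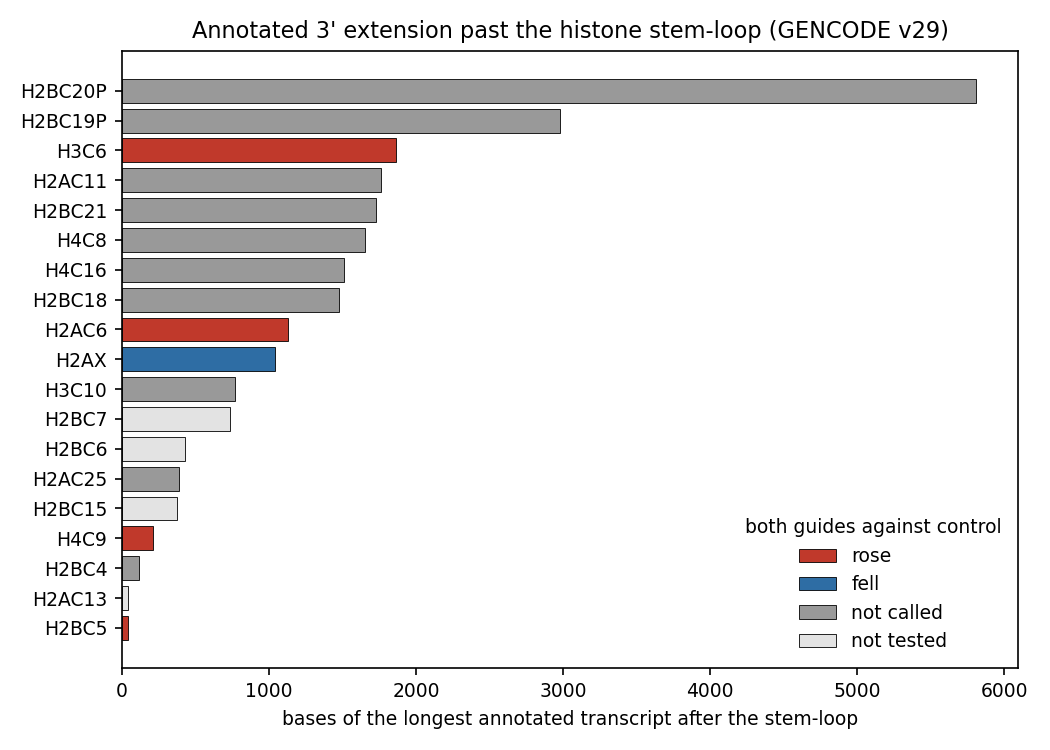
Annotated bases past the stem-loop (x axis, in bases) for the 19 members in which it was found (y axis), taken as the longest run in any GENCODE release 29 transcript that holds it, with bars coloured by the call for both guides against control. The members that rose run from 39 bases in H2BC5 to 1862 bases in H3C6, and the longest run, 5804 bases, is in the pseudogene H2BC20P, which was not called.

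Promoter motifs were more frequent in the clustered genes than in the variants. RefSeq promoters (GRCh38.p14, from 250 bases before to 50 after the start) were matched for 34 members, 24 of them clustered and 8 variants. On either strand, CCAAT was present in 22 clustered promoters (91.7%), in 5 variant promoters (62.5%) and in 35.7% of all 27305 promoters. The octamer ATTTGCAT, known as the element bound by OCT1 in H2B promoters, was present in 12 of 24 clustered promoters, in 1 variant promoter and in 1.80% of all promoters. TATAAA was present in 16 clustered promoters (66.7%), in 3 variant promoters and in 3264 of all 27305. By family, the octamer was in 8 of 10 H2B and 4 of 6 H2A promoters, where 3 of the H2A matches (H2AC6, H2AC11 and H2AC20) are the same site as in the H2B partner's overlapping window, and in 0 of the H1, H3 and H4 promoters among the clustered genes. Matches to different motifs did not overlap, but TATAAA can overlap its own reverse complement. Promoters of genes described below are shown, read 5′ to 3′ on the gene's strand with every match to these motifs on either strand in capitals.
H2BC12, chr6:27146809-27147108, minus strand: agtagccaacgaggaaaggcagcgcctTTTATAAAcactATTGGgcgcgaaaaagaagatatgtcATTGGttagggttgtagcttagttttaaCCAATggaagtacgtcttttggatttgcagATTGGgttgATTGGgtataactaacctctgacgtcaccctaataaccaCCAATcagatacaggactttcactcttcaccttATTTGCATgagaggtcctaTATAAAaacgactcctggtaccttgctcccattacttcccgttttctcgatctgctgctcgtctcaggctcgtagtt
H2BC11, chr6:27132746-27133045, minus strand: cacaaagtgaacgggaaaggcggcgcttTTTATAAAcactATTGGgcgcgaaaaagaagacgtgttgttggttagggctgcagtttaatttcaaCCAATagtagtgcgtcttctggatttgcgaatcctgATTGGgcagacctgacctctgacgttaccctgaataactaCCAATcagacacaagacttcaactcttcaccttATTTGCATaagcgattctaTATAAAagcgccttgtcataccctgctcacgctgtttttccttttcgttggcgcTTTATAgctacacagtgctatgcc
H2AC6, chr6:26123922-26124221, plus strand: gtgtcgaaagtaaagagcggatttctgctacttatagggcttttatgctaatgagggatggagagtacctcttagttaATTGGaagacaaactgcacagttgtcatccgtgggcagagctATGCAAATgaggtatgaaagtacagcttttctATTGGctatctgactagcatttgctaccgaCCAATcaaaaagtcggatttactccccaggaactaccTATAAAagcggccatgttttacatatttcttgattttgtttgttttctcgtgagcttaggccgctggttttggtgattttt
Counted from the start, the octamer began at -46 and TATAAA at -27 in H2BC12, and at -47 and -28 in H2BC11, which both hold further matches to TATAAA. In H2AC6 the octamer, at -130, reads on the opposite strand, and the start of H2BC4, on the other strand, lies 246 bp away, so both genes share this window. H2BC11 and H2AC11 form a like pair, with starts 248 bp apart, as do H2BC21 and H2AC20 on chromosome 1, 236 bp apart.

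Expression was compared as log2 fold changes of CPM with limma, fitted over 13765 genes and all 6 libraries, and a gene was called to rise or fall at a Benjamini-Hochberg adjusted p below 0.05. Both guides together were set against control, then each guide, then KO-2 against KO-1; the comparisons with control share the control libraries. Of the 38 members, 31 passed the filter on low values (a deposited log2 CPM of 0 or more, prior included, in at least 2 libraries). The 7 that did not were all clustered genes, H2AC13, H2AC16, H2BC6, H2BC7, H2BC15, H2BC17 and H3C2, with 2 to 23 reads per library. H4C4 passed through the KO-2 libraries alone, at 0.920 and 0.992 CPM, and H4C16 through knockout libraries alone, and neither was called.

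Clustered genes that changed with both guides together all rose, while the polyadenylated variants that changed mostly fell. Among the 19 clustered genes tested, 7 rose and 0 fell (36.8% called, all higher), against a background of 14.6% of all tested genes higher and 14.9% lower. The 7 were H1-2, H2AC6, H2BC5, H2BC11, H2BC12, H3C6 and H4C9, which encode a linker histone, an H2A, 3 H2B, an H3 and an H4. At an unadjusted p below 0.05 limma also found 0 clustered genes lower, as did voom on the recovered reads after adjustment, while without the mean-variance trend 1 fell, H2BC18. Without control replicate 1 or 2, 4 clustered genes rose, H1-2, H2AC6 and H2BC12 in both cases. Among the 9 variants 1 rose, H3-3A, and 3 fell, H2AZ1 and H2AZ2 among them, of a background of 29.6% called in either direction. With either KO-1 library left out 2 variants fell, without control replicate 1 only H2AZ2 fell, and without control replicate 2 or without the trend none was called. All 4 knockout libraries lay above both controls in 9 of the 31 tested members, 7 of them clustered, and below in 7, against 22.3% and 24% of all genes. The median log2 fold change was 0.23 for the clustered genes tested and -0.15 for the variants, against -0.01 for all genes tested. The clustered median was 0.63 when genes averaging under 2 in log2 CPM were left out. With library medians made equal, the genes called higher were 61.7% of all genes called, against 49.4% in the values as deposited.

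**Figure D2:**
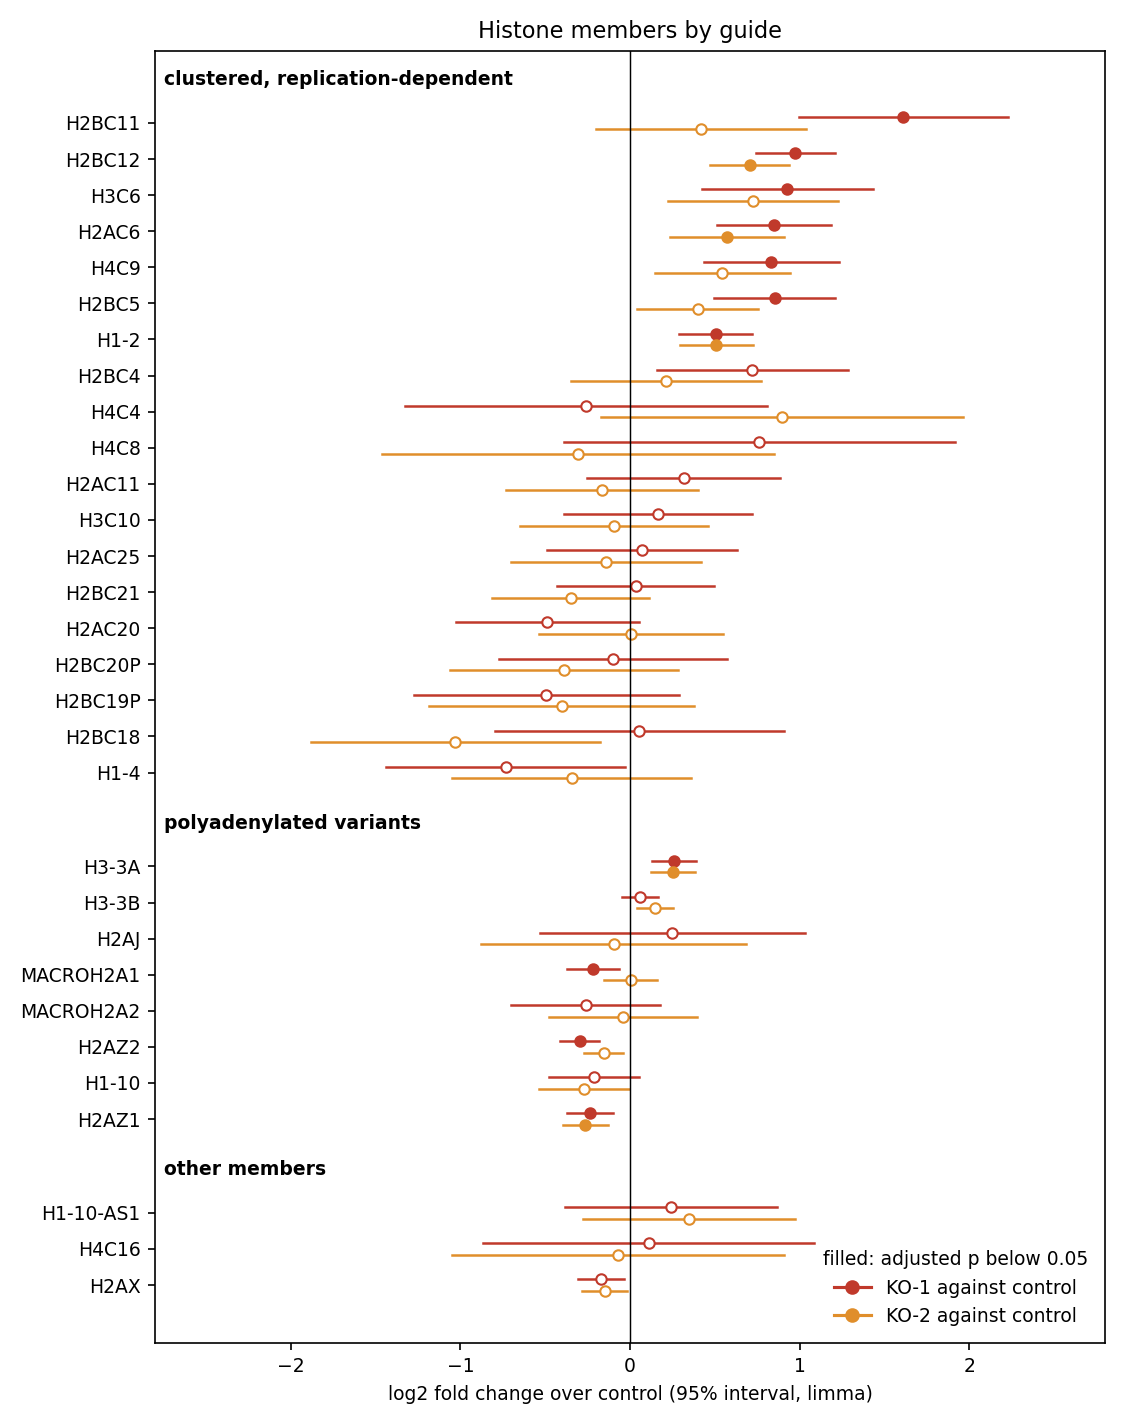
Log2 fold change against control (x axis) with its 95% confidence interval from limma, for the tested members described here (y axis), with KO-1 drawn above KO-2 and filled points for an adjusted p below 0.05. H2BC11 reaches 1.61 in KO-1 and 0.42 in KO-2, while H3-3A, at 0.26 in both, and H2AZ1, at -0.23 and -0.26, move little in size.

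H2B genes gave the largest single changes. H2BC12 (chromosome 6, 27146418 to 27146798, minus strand, GENCODE release 29 on GRCh38) had 28.7 and 29.7 CPM in KO-1 and 23.5 and 25.0 CPM in KO-2, against 15.1 and 14.5 CPM in control, from 306 to 546 reads a library. All knockout libraries lay above both control libraries, and the log2 fold change was 0.84 ± 0.09 (SE) for both guides (adjusted p = 0.00013), 0.98 for KO-1 and 0.71 for KO-2 (adjusted p = 0.00012 and 0.0020). H2BC12 remained called under all 15 alternative settings. Of the 50-base stretches of its 381-base model, 74.1% also occur in other annotated genes, 61.4% in H2BC12L, so its reads and theirs may have been split or dropped in the counting.

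H2BC11 (chromosome 6, 27125897 to 27132750, minus strand) was low, with 5.43 and 6.53 CPM in KO-1 and 2.84 and 2.28 CPM in KO-2, against 2.36 and 1.49 CPM in control. The KO-1 libraries stood above all others, and 1 KO-2 library lay below a control library. It rose by 1.02 ± 0.24 (SE, log2, adjusted p = 0.010) for both guides and by 1.61 ± 0.28 for KO-1 (adjusted p = 0.0018), while KO-2 gave 0.42 (adjusted p = 0.34). For both guides it was no longer called without KO-1 replicate 2 (adjusted p = 0.052), without control replicate 2 (0.16) and with the knockout libraries as 1 group (0.082). H2BC5 (chromosome 6, 26158146 to 26171349, plus strand) had 10.7 and 10.6 CPM in KO-1 and 7.51 and 7.99 CPM in KO-2, against 5.44 and 6.28 CPM in control. Its groups did not overlap, and it rose by 0.63 ± 0.14 (adjusted p = 0.0071) for both guides and by 0.85 for KO-1 (adjusted p = 0.0029), with 0.40 for KO-2 (adjusted p = 0.12). For both guides it was not called once control replicate 1 was left out (0.13). H2BC4, which shares its start region with H2AC6, had 3.50 and 4.41 CPM in KO-1 and 2.45 and 3.03 CPM in KO-2, against 2.27 and 2.41 CPM in control, and was not called (0.47 ± 0.22, adjusted p = 0.14). In KO-1 alone H2BC4 had 0.72 (adjusted p = 0.054) and was called to rise under 6 alternatives. H2BC18 had 1.27 and 1.31 CPM in KO-1 and 0.613 and 0.496 CPM in KO-2, against 1.24 and 1.23 CPM in control, from 8 to 32 reads a library. Both KO-2 libraries lay below all others, but the gene was not called: KO-1 had 0.06 (adjusted p = 0.93), KO-2 had -1.03 ± 0.39 (SE, adjusted p = 0.094), and both guides had -0.49 (adjusted p = 0.30). Without the trend KO-2 was called lower (0.041). H2BC21 had -0.16 (adjusted p = 0.55), and the pseudogenes H2BC19P and H2BC20P had -0.45 and -0.24 (adjusted p = 0.30 and 0.53).

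H2AC6 was the one clustered H2A gene that rose. It spans 26124145 to 26139116 on the plus strand of chromosome 6 and had 19.2 and 24.8 CPM in KO-1 and 16.3 and 19.9 CPM in KO-2, against 12.5 and 11.6 CPM in control. All knockout libraries lay above control, and the log2 fold change was 0.71 ± 0.13 (SE) for both guides (adjusted p = 0.0026), 0.85 for KO-1 (adjusted p = 0.0021) and 0.57 for KO-2 (adjusted p = 0.027). For both guides it remained called under every alternative, whereas the KO-2 call was lost without control replicate 1 (0.13) or 2 (0.17) and without the mean-variance trend (0.12). H2AC11, which shares its start region with H2BC11, had 3.98 and 5.33 CPM in KO-1 and 3.99 and 2.68 CPM in KO-2, against 3.69 and 3.68 CPM in control (0.08, adjusted p = 0.83). H2AC20 and H2AC25 had -0.24 and -0.03 (adjusted p = 0.43 and 0.92).

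The linker histone gene H1-2 lies at 26055787 to 26056428 on the minus strand of chromosome 6. It had 28.1 and 29.5 CPM in KO-1 and 29.6 and 28.2 CPM in KO-2, against 20.2 and 20.4 CPM in control, from 386 to 569 reads a library. All knockout libraries lay close together and above control, with log2 fold changes of 0.51 ± 0.09 (SE, adjusted p = 0.0015) for both guides, 0.50 for KO-1 (adjusted p = 0.0033) and 0.51 for KO-2 (adjusted p = 0.0072). The call for both guides held under every alternative; that for KO-2 was lost without control replicate 1 (0.091) or 2 (0.072) and, narrowly, without the trend (0.050). H1-4, the other clustered linker gene tested, lay below control in all knockout libraries, with 1.09 and 1.41 CPM in KO-1 and 1.53 and 1.79 CPM in KO-2, against 1.97 and 2.30 CPM in control. It was not called for both guides (-0.54 ± 0.28, adjusted p = 0.17) or for KO-1 (-0.73, adjusted p = 0.11), though without the trend it fell in KO-1 (0.043).

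H3C6 and H4C9 were the H3 and H4 genes that rose. H3C6 (chromosome 6, 26224199 to 26227473, plus strand) had 5.37 and 7.56 CPM in KO-1 and 4.91 and 6.20 CPM in KO-2, against 3.39 and 3.22 CPM in control. All knockout libraries lay above both controls, and the log2 fold change was 0.83 ± 0.20 (SE, adjusted p = 0.0099) for both guides, 0.93 for KO-1 (adjusted p = 0.011) and 0.72 for KO-2 (adjusted p = 0.051). H4C9 (chromosome 6, 27138588 to 27139881, plus strand) had 9.11 and 7.56 CPM in KO-1 and 6.90 and 6.65 CPM in KO-2, against 4.41 and 4.82 CPM in control. Here too all knockout libraries lay above control, with 0.69 ± 0.16 (adjusted p = 0.0077) for both guides, 0.83 for KO-1 (adjusted p = 0.0057) and 0.54 for KO-2 (adjusted p = 0.063). The calls for both guides rested on both controls: without control replicate 1 or 2 the adjusted p was 0.081 or 0.096 for H3C6, and 0.11 or 0.059 for H4C9. In KO-1 alone, H3C6 was not called without KO-1 replicate 2 (0.13) or either control (0.065 and 0.077), and H4C9 without KO-1 replicate 1 (0.073) or control replicate 1 (0.067). In RefSeq, H4C9 (27139282 to 27139678) lies inside the span of H2BC12 (27138293 to 27146858) on the opposite strand, and the sources used here do not give the strand setting of the counting, so reads of an unspliced H2BC12 RNA and of H4C9 cannot be told apart. H3C10 had 0.03 (adjusted p = 0.92), and H4C4 and H4C8 had 0.32 and 0.23 (adjusted p = 0.61 and 0.74).

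**Figure D3:**
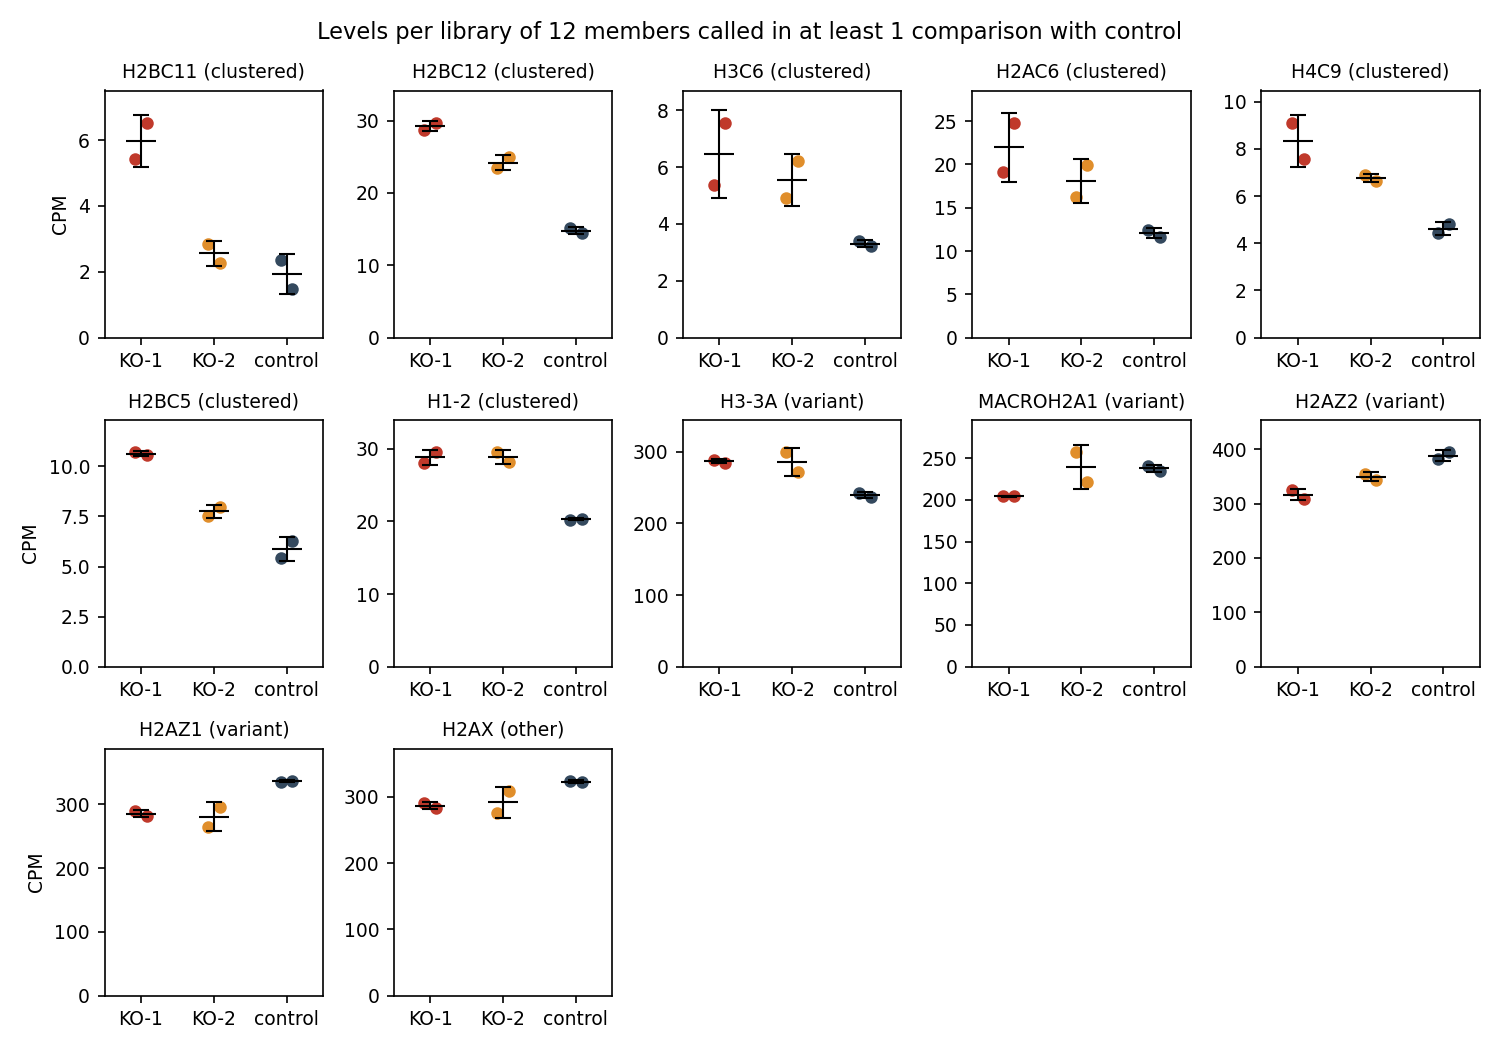
Level in each library (y axis, CPM, from 0) of 12 members called in at least 1 comparison with control, with 1 panel per gene, 1 point per library and the mean ± SD of 2 libraries as bars, for KO-1, KO-2 and control. H2BC12 lies at 23.5 to 29.7 CPM in the knockout libraries and at 14.5 to 15.1 CPM in control, while H2AZ2 lies at 309 to 355 CPM in the knockout libraries and at 381 to 395 CPM in control.

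In sum the variants were the more abundant class, and those called changed less than the clustered genes that rose. H3-3A and H3-3B encode the same replacement histone, H3.3, which is placed into chromatin outside replication. H3-3A (chromosome 1, 226061851 to 226072001, plus strand) had 289 and 285 CPM in KO-1 and 300 and 272 CPM in KO-2, against 242 and 236 CPM in control. It was higher in every knockout library and rose by 0.26 ± 0.05 (SE, log2, adjusted p = 0.0037) for both guides and by 0.26 in each (adjusted p = 0.0071 for KO-1 and 0.015 for KO-2). For both guides it was not called without control replicate 2 (0.069) or without the trend (0.061), and each guide's own call ended without either control (0.053 to 0.14) or either KO-1 library (0.051 to 0.081). Of its 50-base stretches, 11.7% occur in other annotated genes. H3-3B had 462 and 456 CPM in KO-1 and 501 and 476 CPM in KO-2, against 439 and 441 CPM in control. Its knockout libraries also lay above control, but it was not called (0.10 ± 0.04, adjusted p = 0.086), except without KO-2 replicate 1 or 2 and with library medians made equal.

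H2AZ1 and H2AZ2 encode H2A.Z, a variant known for its place at promoters. H2AZ1 (chromosome 4, 99948086 to 99950388, minus strand) had 289 and 282 CPM in KO-1 and 264 and 296 CPM in KO-2, against 335 and 337 CPM in control. All knockout libraries lay below control, and it fell by 0.25 on the log2 scale (SE 0.05, adjusted p = 0.0054) for both guides, by 0.23 for KO-1 and by 0.26 for KO-2 (adjusted p = 0.015 in each). H2AZ2 (chromosome 7, 44826791 to 44848083, minus strand) had 324 and 309 CPM in KO-1 and 355 and 343 CPM in KO-2, against 381 and 395 CPM in control. It too was lower in every knockout library, and fell by 0.22 (SE 0.05, adjusted p = 0.0041) for both guides and by 0.30 for KO-1 (adjusted p = 0.0019), with -0.15 for KO-2 (adjusted p = 0.067). Without the trend, the adjusted p for both guides was 0.074 for H2AZ1 and 0.064 for H2AZ2. Without control replicate 2 it was 0.074 and 0.092 for the same genes, and without control replicate 1 it was 0.073 for H2AZ1. Each guide's own call for H2AZ1 ended without either control (0.098 to 0.13) or either KO-1 library (0.052 to 0.13).

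H1-10, a linker histone variant, had 84.0 and 85.1 CPM in KO-1 and 68.8 and 96.0 CPM in KO-2, against 98.3 and 97.7 CPM in control. It was not called (-0.24 ± 0.10, adjusted p = 0.11), except without KO-2 replicate 1 or 2, the libraries between which it differed most. H1-10 overlaps the antisense H1-10-AS1 (0.29, adjusted p = 0.40), and their reads cannot be told apart here.

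MACROH2A1 encodes macroH2A, an H2A variant with a large globular macro domain. Of its 50-base stretches, 28.3% also occur in other annotated genes, 26.1% in PITX1-AS1. The exons of PITX1-AS1 overlap it on the opposite strand, so their reads cannot be told apart there. MACROH2A1 had 204 and 205 CPM in KO-1 and 258 and 221 CPM in KO-2, against 241 and 235 CPM in control. KO-1 lay below control and KO-2 lay on both sides of it: the gene fell by 0.22 (SE 0.07, log2, adjusted p = 0.037) in KO-1, a call lost without any 1 of the KO-1 or control libraries (0.14 to 0.20), without the trend (0.17) and with library medians made equal (0.10), and had 0.00 in KO-2 (adjusted p = 0.97). MACROH2A2 had 4.58 and 3.92 CPM in KO-1 and 4.75 and 5.16 CPM in KO-2, against 5.14 and 5.05 CPM in control (-0.15, adjusted p = 0.55). H2AJ, an H2A variant known to accumulate in senescent cells, had 1.57 and 1.31 CPM in KO-1 and 1.23 and 0.992 CPM in KO-2, against 1.11 and 1.26 CPM in control (0.08, adjusted p = 0.87).

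H2AX, the variant phosphorylated at DNA breaks, had 290 and 283 CPM in KO-1 and 275 and 308 CPM in KO-2, against 324 and 322 CPM in control. It lies at 119093854 to 119095467 on the minus strand of chromosome 11. Every knockout library was below control, and it fell by 0.16 (SE 0.05, log2, adjusted p = 0.041) for both guides, with -0.17 for KO-1 (adjusted p = 0.055) and -0.15 for KO-2 (adjusted p = 0.12). The call was lost without the trend (0.18), with library medians made equal (0.14), with the knockout libraries as 1 group (0.073), and without any 1 of the KO-1 or control libraries (0.10 to 0.25). Per kilobase of annotated exon H2AX stood highest of the histone members named here, at 178 CPM per kb in KO-1, 181 in KO-2 and 200 in control. On that scale H2AZ1 had 124, 122 and 146, H3-3A 91.2, 90.9 and 76.1, H2BC12 76.7, 63.5 and 38.8, and H1-2 44.9, 45.0 and 31.6 in KO-1, KO-2 and control. These levels depend on the annotated exon length, which for H2BC12 and H1-2 is close to the coding sequence alone.

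Summed over all 26 clustered genes, the level was 146.8 and 156.6 CPM in KO-1 and 124.1 and 133.2 CPM in KO-2, against 102.8 and 100.2 CPM in control, or 1.49 times control in KO-1 and 1.27 times in KO-2. Clustered genes took 6.79% and 7.33% of the members' reads in KO-1 and 5.57% and 6.0% in KO-2, against 4.56% and 4.45% in control. H1-2, H2AC6 and H2BC12 held much of the rise: without them the sum was 70.8 and 72.6 CPM in KO-1 and 54.8 and 60.1 CPM in KO-2, against 55.1 and 53.7 CPM in control, and KO-2 overlapped control. These 3 are the clustered genes called to rise in KO-2, so that overlap follows in part from leaving them out. The 9 variants summed to 1723 and 1694 CPM in KO-1 and 1827 and 1777 CPM in KO-2, against 1825 and 1828 CPM in control, so that KO-2 lay on both sides of control replicate 1. All 38 members together had 2163 and 2137 CPM in KO-1 and 2230 and 2222 CPM in KO-2, against 2256 and 2253 CPM in control.

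**Figure D4:**
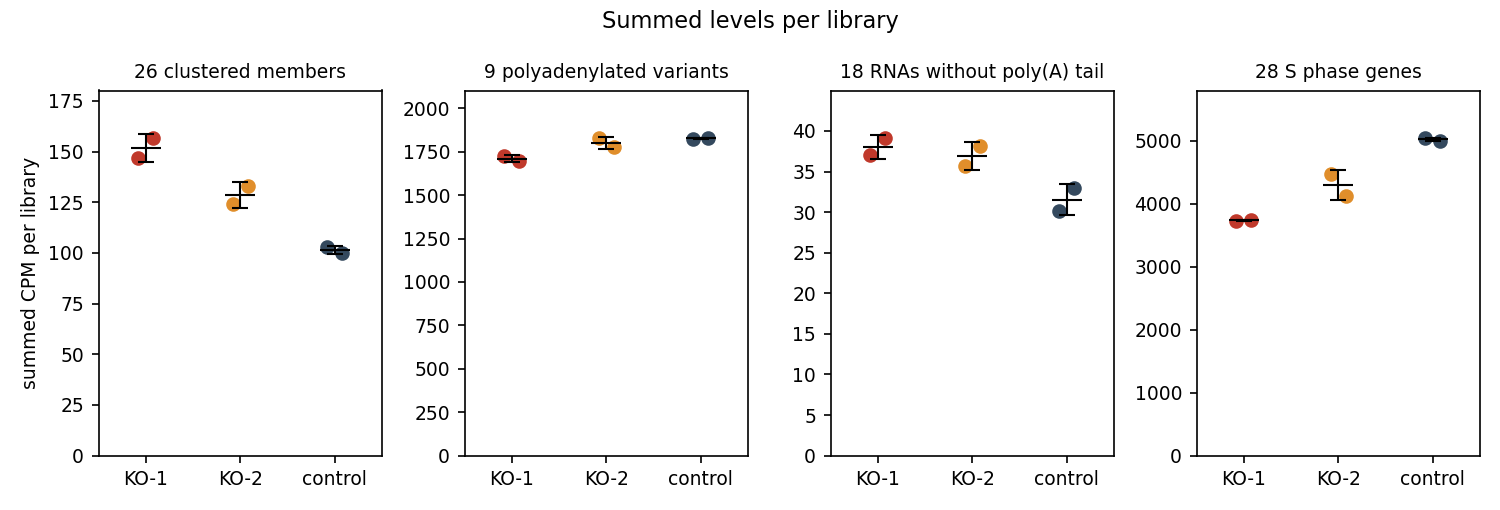
Summed level in each library (y axis, CPM, from 0) for clustered genes, variants, small RNAs without a poly(A) tail and S phase genes, with 1 point per library and the mean ± SD of 2 libraries as bars, for KO-1, KO-2 and control. The clustered sum is 124.1 to 156.6 CPM in the knockout libraries and 100.2 to 102.8 CPM in control, and the sum of 28 S phase genes is 3727 to 4468 CPM in the knockout libraries and 4998 to 5039 CPM in control.

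Among clustered genes with a poly(A) signal at an annotated end, 4 of 13 tested rose (H2AC6, H2BC5, H2BC11 and H3C6, median 0.08). Where none was found, 3 of 6 rose (H1-2, H2BC12 and H4C9, median 0.41). In both sets 0 fell, against 14.6% of all tested genes higher and 14.9% lower. The models of H1-2 and H2BC12 are close to the coding sequence alone, so these genes were not shown to lack a signal. In KO-1 the median was 0.32 with a signal and 0.12 without, and in KO-2 -0.14 and 0.53. The 6 include H4C4, which passed the filter through KO-2 alone. Small RNAs without a poly(A) tail were measured beside the clustered genes. Of those sought by name, RN7SL1, the signal recognition particle RNA, had a row, while RN7SK, RN7SL2, RMRP, RPPH1 and TERC had none. The others, mostly small nucleolar RNAs, were taken by family from the rows present, so their presence was not a result. RN7SL1, at a log2 CPM of 4.28 to 4.52, held a large part of the sum. These 18 RNAs summed to 37.0 and 39.1 CPM in KO-1 and 35.6 and 38.2 CPM in KO-2, against 30.2 and 32.9 CPM in control. Their sum thus lay above control in every knockout library, as did that of the clustered genes, and its part in the clustered result was not tested. Of the 7 tested, limma called 0, voom also 0, and 0 passed an unadjusted p of 0.05 (median 0.16); without KO-2 replicate 1, 1 rose and 1 fell. RN7SL1 had 0.16 (adjusted p = 0.24), SNORD17 0.32 (0.25), SNORD14A 0.88 (0.24) and SNORD83A -0.88 (0.14).

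The guides were next set against each other, to see where the histone response differed between them. With KO-1 alone, 7 clustered genes rose and 0 fell (median 0.32), with the same 7 symbols as for both guides, against a background of 14.6% higher and 15.1% lower. Among the variants 1 rose and 4 fell (median -0.22), but 1 fell without any 1 of the KO-1 or control libraries. With KO-2 alone, 3 clustered genes rose, H1-2, H2AC6 and H2BC12, and 0 fell (median 0.01), against 8.73% higher and 8.19% lower, and 1 variant rose, H3-3A, and 1 fell, H2AZ1 (median -0.10). Without either control library or without the trend, H2BC12 was the single clustered gene that rose in KO-2. In KO-2 1 clustered gene fell without the trend, H2BC18, and 1 without KO-2 replicate 2, H2BC20P; in KO-1 1 fell without the trend, H1-4. Tested directly, 0 of 31 members were called between KO-2 and KO-1 by limma or voom, against 1.14% of all genes (0.334% higher and 0.806% lower). KO-2 had the widest spread between replicates, and a member not called was not shown to be equal in both guides. At an unadjusted p below 0.05 limma found 7 of the 31 members, against 2381 of all 13765 genes. H2BC18 had -1.09 ± 0.39 (SE, adjusted p = 0.19) in KO-2 relative to KO-1. H2BC11 came nearest to a call, with KO-2 at -1.19 ± 0.28 (SE, log2) relative to KO-1, a 95% interval of -1.81 to -0.58 and an adjusted p of 0.071. H2BC11 was called with 1 CPM added and without KO-2 replicate 1 or 2. Other members, MACROH2A1 among them, were called without KO-2 replicate 2. For H2BC12 the difference of KO-2 from KO-1 was -0.27 (-0.50 to -0.04), for MACROH2A1 0.22 (0.07 to 0.38), for H1-2 0.00 (-0.21 to 0.22) and for H3-3A -0.01 (-0.14 to 0.12).

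The authors' deposited table gave 9 of the 38 members higher and 5 lower in KO-1 at a false discovery rate below 0.05. It added H2BC4 and H2AX to the KO-1 calls by limma. Of all 14788 genes it gave 2103 higher and 2183 lower in KO-1. For KO-2 the authors' deposited table gave 5 members higher, adding H3C6, and 1 lower, H2AZ1, against 1271 and 1194 of all genes. Between KO-2 and KO-1 the authors' deposited table called 1 member, H2BC11, at a log2 fold change of -1.24 (false discovery rate 0.049). Of all genes it called 75 higher and 145 lower in KO-2 than in KO-1.

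Genes that act on histone mRNA moved in both directions. Of 36 genes of histone transcription and 3′ end processing, 4 rose and 3 fell with both guides (19.4% called, against 29.6% of all genes; median 0.04). SLBP, which binds the stem-loop and accumulates in S phase, had a log2 CPM of 6.34 and 6.37 in KO-1 and 6.84 and 6.64 in KO-2, against 7.01 and 7.05 in control. It fell by 0.48 (SE 0.07, adjusted p = 0.00050) for both guides, by 0.67 for KO-1 and by 0.29 for KO-2 (adjusted p = 0.00016 and 0.026), and KO-2 stood above KO-1 by 0.38 (adjusted p = 0.040). NPAT, the coactivator of clustered histone genes, had a log2 CPM of 5.85 and 5.85 in KO-1 and 5.93 and 5.87 in KO-2, against 5.66 and 5.64 in control, and rose by 0.22 ± 0.06 (adjusted p = 0.024). ZNF473, a zinc finger protein of histone pre-mRNA processing, rose by 0.41 (adjusted p = 0.0062), and ERI1, the exonuclease that trims histone mRNA ends, by 0.28 (adjusted p = 0.0038). LSM4 also rose, and CCNE2 and NFYB fell. With 1 library left out, 0 to 8 of the list rose and 1 to 10 fell.

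S phase genes were mostly lower, and so were some factors that supply new histones. Of 28 S phase genes, 0 rose and 22 fell with both guides (median -0.25), against 14.9% of all genes lower; limma at an unadjusted p below 0.05, and voom after adjustment, found 0 higher. With 1 library left out, 9 to 25 fell, the fewest without control replicate 2, and 9 fell without the trend. In KO-1 24 of the 28 fell, against 15.1% of all genes, and in KO-2 9, against 8.19%. Their summed level was 3727 and 3741 CPM in KO-1 and 4468 and 4127 CPM in KO-2, against 5039 and 4998 CPM in control, so it was lower where the clustered histone sum was higher, and its part in that result was not tested. Relative to control, RRM2, which makes deoxynucleotides, had -0.86, E2F1, the G1/S transcription factor, -0.91, and the helicase genes CDC45 and MCM6 -0.79 and -0.57. Of 33 deposition and exchange factors, 2 rose and 11 fell (median -0.06), against 14.6% of all genes higher and 14.9% lower, or 0 to 6 and 3 to 14 with 1 library left out. ASF1B and both CHAF1 genes, which hand new H3 and H4 to replicated DNA, fell by 0.84 (ASF1B), 0.43 (CHAF1A) and 0.55 (CHAF1B), and NASP, a chaperone of the same histones, by 0.22. SLBP, CCNE1 and CCNE2 stand in both the first list and that of S phase, and MCM2 in both of the others.

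Outside the histone genes, the pattern of H2BC12 across the 6 libraries was followed most closely by CSF1 and SEMA3C (Pearson r of log2 CPM 0.999 each), LDHA and GHITM (0.997 each) and GPD2 (0.996), among 10175 genes whose log2 CPM averaged 3 or more. This is a description over 6 libraries that fall into groups, and 10.6% of those genes had an r of at least 0.9.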

How the data were processed

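The authors deposited expression as log2 CPM (counts scaled to library size). A second deposited table holds the authors' log2 fold changes, p-values and false discovery rates. Per the submitters' processing notes, the tools were fastp, STAR (2.7), featureCounts from Subread (2.0) and edgeR, with hg38. The sources used here give no annotation, strand setting or gene filter. With the prior of 0.102 CPM (the minimum, -3.29) taken off, 100% of values were whole reads (tolerance 0.01 reads). Since the values are log2 CPM, limma (3.58.1, R 4.3.3) was the main test: group means over 6 libraries, a mean-variance trend, 3 residual and 8.02 prior degrees of freedom, and Benjamini-Hochberg adjustment over 13765 genes (1023 were removed). It was tested on simulated data. Fold changes on the log2 scale of CPM plus the prior understate those of genes with few reads. Intervals are 95% intervals from limma; floors cover counting error only. A test of both guides averaged the KO-1 and KO-2 effects. Alternatives were no trend, other scaling and filters, 1 CPM added, voom, a replicate block, the knockout libraries as 1 group, and each library left out. Replicate numbers did not pair the samples. Values per library are given for the members called in a comparison with control, the variants (1 member of the set is counted but not reported here by name) and a few others that overlap, pair with or lie near these (these few were chosen after their values were seen); from each gene list the 4 members with the lowest p are named, plus SLBP, NPAT and, by symbol alone, others called. The members and lists were chosen with earlier results of these data known. Stem-loops were sought in GENCODE release 29 transcripts and motifs in RefSeq promoters by exact letters.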

Additional observations from a re-analysis of the deposited data

How the results depend on the processing

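No member's result that was called in the main fit or in an alternative changed sign under any of the 15 alternatives. A change of sign in a result called in neither was not counted. For both guides the main counts were 8 of 31 tested members that rose and 4 that fell. Of all 13765 tested genes, 2011 were higher (14.6%) and 2057 lower (14.9%), or 1029 and 1172 without the mean-variance trend. Without the trend 1 member fell for both guides and 2 for KO-1, and 1 rose for KO-2, where H2BC18 fell. With library medians made equal 7 rose for KO-2, and 2 fell for KO-2 with quantile normalization and with voom. With 1 CPM added, 1 member was lower in KO-2 than in KO-1. Leaving out genes that averaged under 2 in log2 CPM gave a clustered median of 0.63, against 0.23, with fewer low genes in the median. Leaving out 1 library at a time gave 4 to 9 members that rose and 0 to 6 that fell for both guides, 5 to 9 and 1 to 6 for KO-1, and 1 to 6 and 0 to 5 for KO-2. For KO-2 against KO-1 it gave 0 to 3 in each direction. The clustered median then ranged from 0.16 to 0.33 and the variant median from -0.21 to -0.11. Leaving out a library leaves its group with 1, which is assumed to vary like the others. Same-numbered libraries deviated with r of -0.04 (KO-1 and KO-2), -0.05 (KO-1 and control) and 0.04 (KO-2 and control). With the replicate number as a block 8 rose and 3 fell for both guides, where H2AX was no longer called (adjusted p = 0.055), and 1 of 124 single results changed its call. Depth limits the clustered genes most, since 7 of them had 2 to 23 reads.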
